A study of Macaca fascicularis with 9 samples.

Results

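PDE10A, DRD1, DRD2, ADORA2A, PENK, TAC1, RGS9 and RARB are genes that mark striatal projection neurons, the GABA-releasing output cells of the caudate nucleus and putamen. They were taken by name, as 8 of the 29128 features counted, and followed through neurons, the other cell types and single nuclei of the thalamus. The tissue came from 9 female cynomolgus monkeys (Macaca fascicularis) in 3 groups of 3. One group received saline intravenously in 4 doses given every other week. A second received a MALAT1 antisense oligonucleotide (ASO) at 4 mg intrathecally, that is into the cerebrospinal fluid, in 1 dose, and is called ASO here. The third received OTV:MALAT1 intravenously at 30 mpk in 4 doses given every other week, and is called OTV here. All animals were sampled 2 weeks after the last dose. The ASO group had no saline control of its own route and number of doses, so route, schedule and agent cannot be told apart. Neither a strain nor an age is named in the labels.

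Striatal projection neurons fall into a pair of pathways. Neurons of the direct pathway carry the D1 dopamine receptor (DRD1) and make substance P from the precursor TAC1, and they project to the output nuclei of the basal ganglia. Neurons of the indirect pathway carry the D2 dopamine receptor (DRD2) and the adenosine receptor ADORA2A, make enkephalin from the precursor PENK, and project to the external pallidum. Both share PDE10A, a phosphodiesterase that degrades cyclic nucleotides, RGS9, which speeds the shut-off of G proteins, and RARB, a nuclear receptor for retinoic acid. The thalamus is better known for glutamatergic relay neurons, which receive basal ganglia output and project to cortex.

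The data held 79994 nuclei with UMIs (unique molecular identifiers, 1 per captured RNA molecule) summing to 20.0 to 98.9 M per animal, with at least 1018 UMIs in each nucleus. Per animal there were 2956 to 11992 nuclei. The targeted RNA, MALAT1, took 5.38 to 6.36% of all UMIs in saline, 4.15 to 5.601% in ASO and 3.12 to 3.80% in OTV animals, and ASO animal 3 lay within the saline range. In neurons it took 4.81 to 6.22% in saline, 3.38 to 7.61% in ASO and 2.20 to 2.90% in OTV animals. The 7.61% was that of ASO 3, above every saline animal, and ASO 3 held 467 of the 502 ASO neurons. The authors' cell type table named 1714 nuclei neurons, which is 2.14% of all, and these make up 1 cluster of the 17. The neuron markers listed for the check summed to 6686 to 7253 CPM (counts per 1000000 UMIs) in saline, 5275 to 5684 CPM in ASO and 6001 to 8095 CPM in OTV neurons, wholly lower in ASO than in both others. Their part in the ASO values was not tested. Neurons were very unevenly spread: saline animals 1, 2 and 3 had 364, 23 and 527, ASO animals had 18, 17 and 467, and OTV animals had 98, 112 and 88. Saline 1, saline 3 and ASO 3 therefore held 1358 neurons, or 79.2%, and each value over all neurons rests mainly on them. Neurons were 0.143 to 17.8% of an animal's nuclei, and this share did not differ between groups by an exact permutation test (p = 0.536; smallest p possible 0.00357; n = 3 animals each). Animals shared 760 barcodes (1522 nuclei, 1.90%; 3 to 48 per pair of animals), among them 29 neurons.

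The labelled tissue was checked against thalamic neuron genes. SLC17A6, the vesicular glutamate transporter of thalamic relay neurons, stood at 1.25, 82.9 and 0.246 CPM in the neurons of saline animals 1, 2 and 3, at 13.9, 0 and 0 CPM in ASO animals, and at 31.8, 33.3 and 6.49 CPM in OTV animals. It was thus at or near 0 in saline 1, saline 3 and ASO 3, while the 0 of ASO 2, from 17 neurons, allows up to 11.2 CPM (3 counts). The 12 matched thalamic genes together ranged from 1974 to 3771 CPM in saline, 1764 to 3096 CPM in ASO and 4634 to 5596 CPM in OTV neurons. RORA was the largest part of this sum. It stood at 2258 CPM in neurons with 20 or more PDE10A UMIs per 10000 UMIs and at 1980 CPM in those below, so the sum is a weak check. Of the neurons below that rate, 5.70% had an SLC17A6 UMI and 73.5% had one of GAD1, from the list of shared striatal genes used below. The neurons of the 3 animals that supply most of them were low in SLC17A6 and, as described next, high in the striatal genes.

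Pooled over animals, 84.1% of the 104227 PDE10A UMIs lay in neurons, which are 2.14% of nuclei. Per animal this share was 82.98, 5.81 and 93.9% in saline, 2.62, 25.6 and 84.8% in ASO and 14.04, 43.7 and 31.4% in OTV animals, so most PDE10A UMIs lay outside neurons in 6 of the 9. The corresponding pooled shares were 64.2% of 772 UMIs for DRD2, 57.6% of 8820 for RARB, 54.2% of only 59 for DRD1, 48.8% of 691 for ADORA2A, 44.9% of 3120 for PENK, 43.2% of 2817 for TAC1 and 40.4% of 24214 for RGS9. Between 96.2% (RARB) and 100% (DRD1) of each member's neuronal UMIs came from saline 1, saline 3 and ASO 3. The members were named for being striatal neuron genes and the clusters were made from the same counts, so levels by cell type are given as a description with no test.

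**Figure D1:**
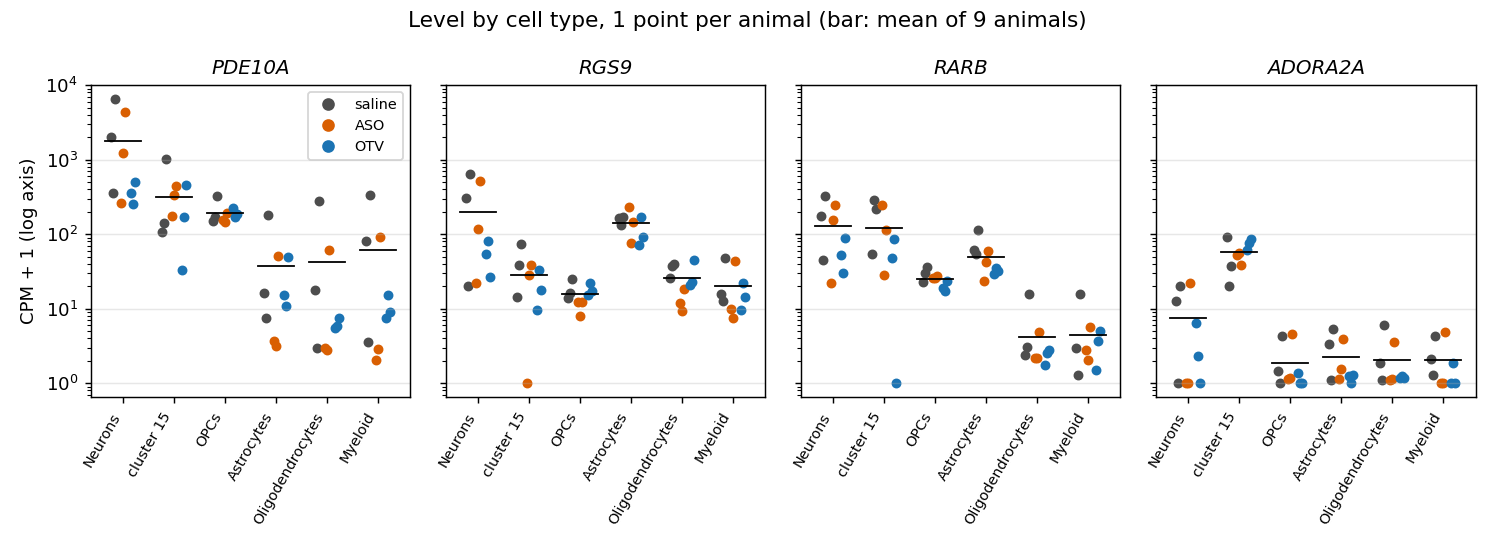
Level of PDE10A, RGS9, RARB and ADORA2A (CPM + 1, log axis) by cell type and in cluster 15, with 1 point per animal coloured by group and a bar at the mean of 9 animals. Neurons held the highest mean of PDE10A, RGS9 and RARB, and cluster 15 that of ADORA2A, 57.0 CPM against 6.599 CPM in neurons.

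PDE10A averaged 1762 ± 2231 CPM (SD, n = 9 animals) in neurons and 191 ± 55.6 CPM in oligodendrocyte precursor cells (OPCs). The level in OPCs ran from 145 to 323 CPM, and neurons of any animal had 254 CPM or more. Myeloid nuclei (60.3 ± 109 CPM), oligodendrocytes (41.7 ± 89.8 CPM) and astrocytes (36.7 ± 57.0 CPM) had lower means with a spread larger than the mean. Clusters 15 and 16, which the authors named unknown, averaged 320 ± 301 and 245 ± 391 CPM (cluster 16 in 5 animals). In the order of the means, no type differed from the next beyond the range over animals. Within animals, though, neurons lay above cluster 15 in 9 of 9 and OPCs above myeloid nuclei in 8 of 9. Oligodendrocytes lay above astrocytes in only 3 of 9.

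RGS9 was shared by neurons and glia. It averaged 198 ± 237 CPM in neurons and 139 ± 51.8 CPM in astrocytes, where it lay between 71.8 and 230 CPM, and neurons exceeded astrocytes in 4 of 9 animals. Oligodendrocytes had 24.9 ± 12.7 CPM but, being the most numerous type, held 33.8% of all RGS9 UMIs, while astrocytes held 20.8%. RARB averaged 126 ± 107 CPM in neurons, 119 ± 105 CPM in cluster 15, 96.7 ± 67.1 CPM in cluster 16 (5 animals), 49.3 ± 27.6 CPM in astrocytes and 24.4 ± 5.69 CPM in OPCs. Myeloid nuclei and oligodendrocytes had 3.50 ± 4.42 and 3.17 ± 4.38 CPM of RARB. Here the ranges of OPCs (16.4 to 35.5 CPM) and myeloid nuclei (0.281 to 14.6 CPM) did not overlap, and those of all other neighbours did. DRD2 averaged 10.1 ± 12.9 CPM in neurons, 0.9501 ± 0.538 CPM in OPCs and 0.594 ± 0.490 CPM in oligodendrocytes. Neurons averaged 27.6 ± 38.7 CPM of PENK and 23.0 ± 31.5 CPM of TAC1, against means over animals of at most 10.1 and 7.02 CPM in the other types and in clusters 15 and 16, with overlapping ranges throughout. Pooled over animals, OPC cluster 14 had 16.5 CPM of PENK and 18.1 CPM of TAC1 from 10 and 11 UMIs, and cluster 16 had 14.01 CPM of TAC1.

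ADORA2A differed from the other members in where it was highest. Cluster 15 held only 213 nuclei, yet its 3 saline animals had 92.2, 18.95 and 36.3 CPM, its ASO animals 52.2, 55.1 and 37.2 CPM, and its OTV animals 61.0, 75.0 and 85.5 CPM. Each animal's value in cluster 15 exceeded that animal's neurons, from only 1 to 21 UMIs per animal. Pooled over animals, ADORA2A stood at 54.3 CPM in cluster 15 and 15.1 CPM in neurons. In neurons with 20 or more PDE10A UMIs per 10000 UMIs it stood at 26.8 CPM. Over all animals 41 of the 213 nuclei had an ADORA2A UMI.

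Cluster 15 was checked against cell type markers. The genes leading it were SLC6A12, SLC6A20, LAMA2, SLC38A11, COL3A1, DCN, BGN, FHL5, C7 and ITIH5. Both mural and fibroblast markers were present: PDGFRB at 883 CPM, RGS5 at 1025 CPM and ABCC9, a potassium channel subunit typical of pericytes, at 594 CPM, beside DCN at 421 CPM and COL3A1 at 142 CPM. The cluster therefore keeps its number and gets no cell type name. Of the neuronal markers, SNAP25 (21.9 against 34.6 CPM in the other nuclei) and RBFOX3 (4.17 against 23.6 CPM) were lower. MAP2 was higher, at 408 against 264 CPM. DRD1 and DRD2 were at 0 in this cluster. Of the cluster's nuclei with an ABCC9 UMI, 23.3% also had ADORA2A (median depth 4431 UMIs), against 9.52% of those without (4053 UMIs). For DCN the shares were 15.0% with (4558 UMIs) and 26.2% without (3847 UMIs). For the fibroblast genes COL1A2 and COL3A1 they were 8.57% with and 21.3% without, and 20.99% with and 18.2% without. For the mural genes PDGFRB and RGS5 they were 20.9% with and 7.69% without, and 21.4% with and 11.1% without. These shares come from 41 nuclei, and no test over animals was made. For comparison, 0.0534 to 2.23% of an animal's oligodendrocytes had an ADORA2A UMI, at median depths of 2558 to 7812 UMIs.

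In neurons the level of PDE10A differed widely between animals of the same group. Saline animals 1, 2 and 3 had 1999, 354 and 6511 CPM. ASO animals had 264, 1234 and 4383 CPM, and OTV animals had 358, 254 and 503 CPM. The high values were those of saline 1, saline 3, ASO 3 and, from 17 neurons, ASO 2. The group ranges overlapped, and group means were 2955 ± 3188, 1960 ± 2153 and 372 ± 125 CPM (SD, n = 3).

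**Figure D2:**
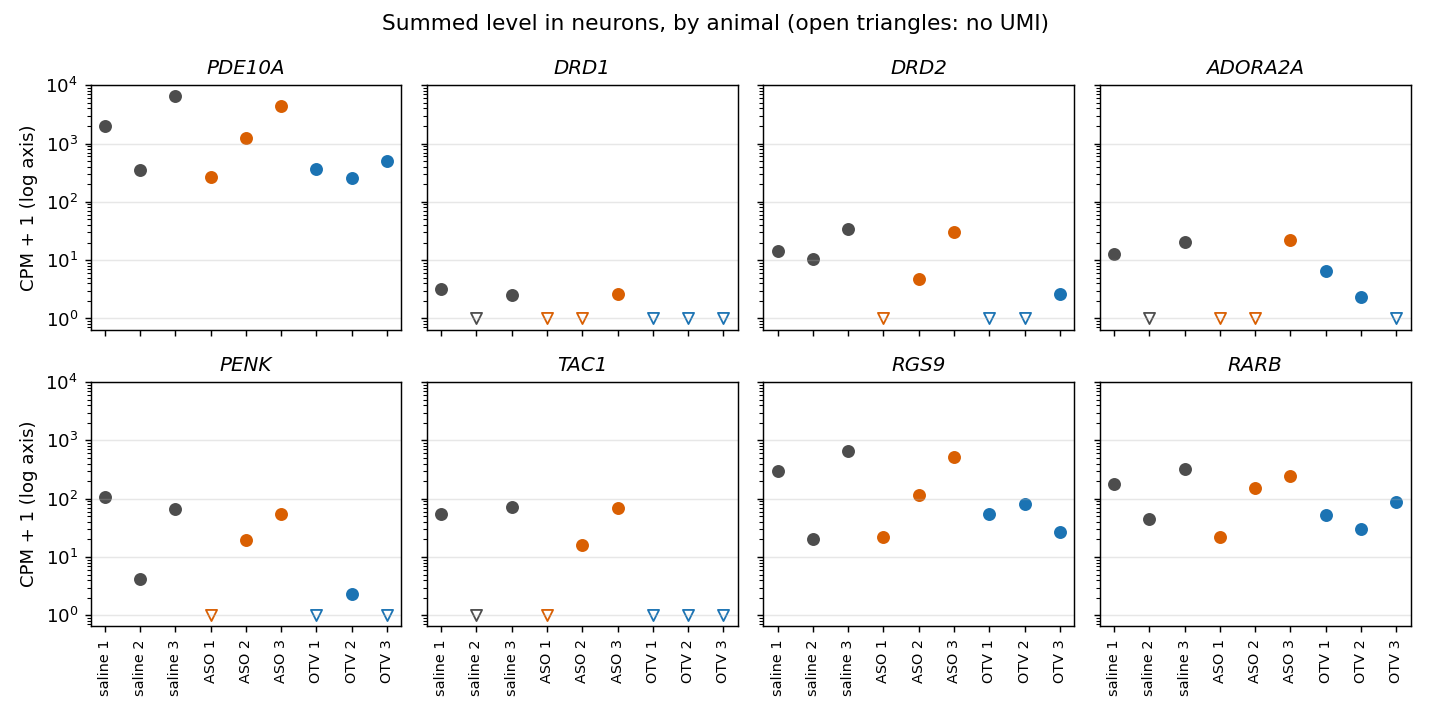
Level of each gene (CPM + 1, log axis) summed over the neurons of each of the 9 animals, 1 point per animal coloured by group, with open triangles where no UMI was found. PENK and TAC1 reach 107 and 69.8 CPM in saline animals, and PENK at most 1.31 and TAC1 0 CPM in OTV animals.

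The level was then followed in single neurons. At 20 or more PDE10A UMIs per 10000 UMIs there were 97 of 364 neurons in saline 1, 0 of 23 in saline 2, 320 of 527 in saline 3, 1 of 18 in ASO 1, 3 of 17 in ASO 2, 184 of 467 in ASO 3, and 0 of 98, 2 of 112 and 2 of 88 in OTV animals 1, 2 and 3. This threshold was set after seeing the values, 98 neurons lay between 10 and 20 per 10000, and the class is a range rather than a cell type. Being cut from PDE10A's own rate, its size follows the animal's PDE10A level by construction. Median rates per 10000 UMIs were 5.63, 1.94 and 55.4 in saline, 0.743, 1.79 and 6.53 in ASO and 2.04, 1.04 and 2.34 in OTV neurons. In saline 3 most neurons were rich in PDE10A, whereas 5.31% of them had none.

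Any PDE10A UMI was found in 83.8, 78.3 and 94.7% of saline neurons, 55.6, 64.7 and 76.2% of ASO neurons and 65.3, 58.9 and 62.5% of OTV neurons. Before depth was made equal, PDE10A had p = 0.0393 by an exact permutation test of the 3 groups, against 0.100 to 0.571 for the other 7 members, an addition made after seeing the data, with no adjustment. The same share over all genes was not computed. In oligodendrocytes of the same animals these shares were 9.46, 1.44 and 68.3%, 1.19, 1.42 and 25.9%, and 2.93, 2.73 and 2.14%. The median depth of a neuron ranged from 4445 to 16731 UMIs and that of an oligodendrocyte from 2558 to 7812 UMIs. With every neuron thinned to 1000 UMIs the shares were 50.5, 8.70 and 75.7% in saline, 33.3, 23.5 and 53.3% in ASO and 27.6, 16.96 and 26.1% in OTV neurons. The difference did not then pass the test (exact permutation test, p = 0.529, smallest p possible 0.00357). For none of the 8 members did the thinned share pass, with unadjusted exact p of 0.250 or more. The smallest p possible was 0.0357 for DRD2, ADORA2A, PENK and TAC1, and for DRD1 the thinned counts allowed no p under 1.

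**Figure D3:**
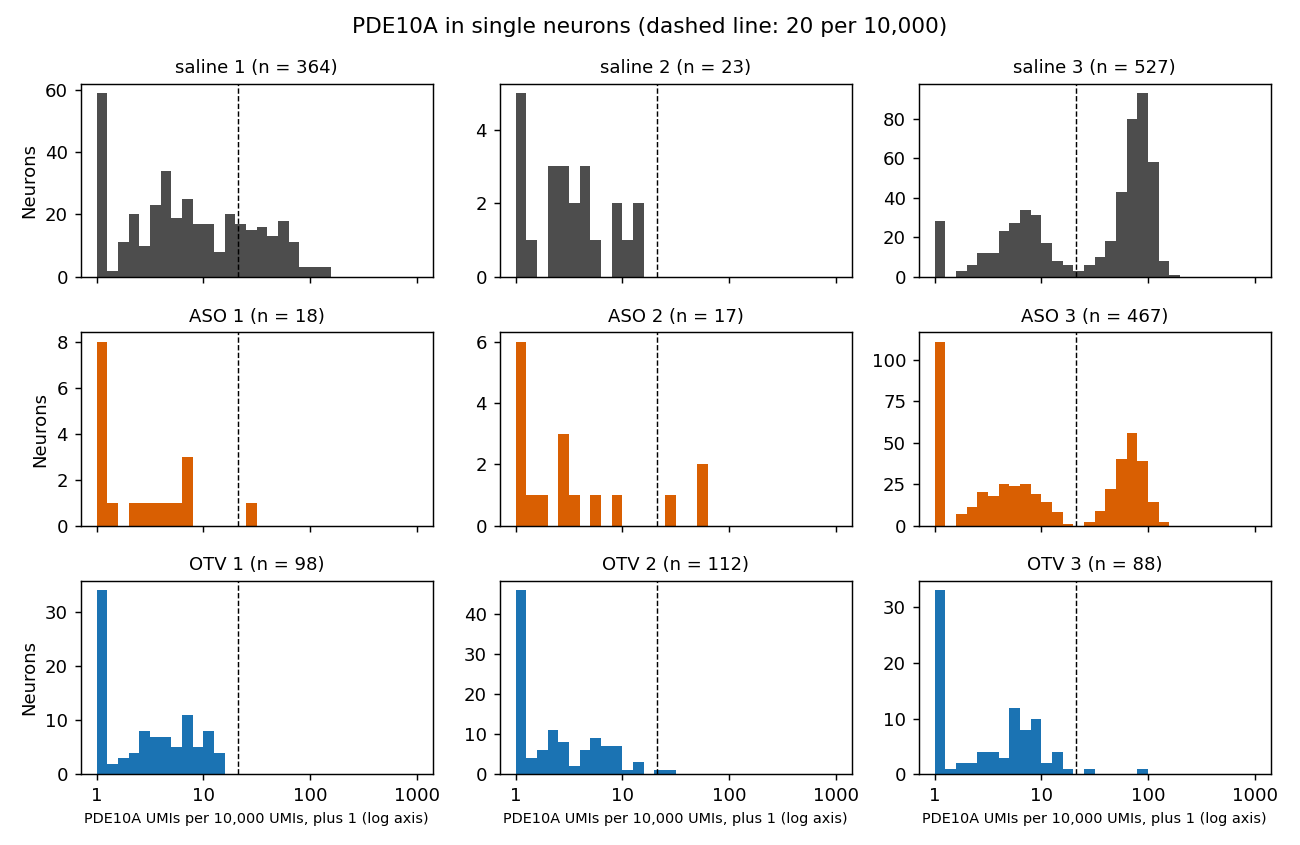
Number of neurons (vertical axis, a scale of its own for each animal) by PDE10A UMIs per 10000 UMIs plus 1 (log axis), with a dashed line at 20 per 10000. Of the 609 neurons at or above the line, 97 came from saline 1, 320 from saline 3 and 184 from ASO 3.

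RGS9 and RARB followed the same animals. RGS9 stood at 303, 19.1 and 652 CPM in saline, 20.9, 116 and 512 CPM in ASO and 53.9, 79.7 and 26.0 CPM in OTV neurons. RARB stood at 176, 44.7 and 327 CPM in saline, 20.9, 153 and 246 CPM in ASO and 51.2, 29.4 and 87.6 CPM in OTV neurons. For both, saline 1, saline 3 and ASO 3 were the 3 highest animals, the lowest saline animal lay among the OTV animals or below them, and the groups overlapped. Group means were 325 ± 317, 216 ± 261 and 53.2 ± 26.9 CPM for RGS9 and 183 ± 141, 140 ± 113 and 56.1 ± 29.4 CPM for RARB (saline, ASO, OTV).

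The direct pathway genes were seen in the neurons of few animals. TAC1 stood at 53.1, 0 and 69.8 CPM in saline and 0, 15.0 and 69.4 CPM in ASO neurons, and no TAC1 UMI was found among the 2869494 UMIs of OTV neurons. That count of 0 allows up to 3 UMIs, or 1.05 CPM over the group, so the saline mean over animals of 41.0 ± 36.4 CPM was at least 39.2-fold higher than that limit, counting error only. Saline 2 and ASO 1 were also at 0, in 23 and 18 neurons, and most of the ASO mean of 28.1 ± 36.5 CPM came from ASO 3. DRD1 was hardly captured: its 32 neuronal UMIs gave 2.15, 0 and 1.48 CPM in saline and 0, 0 and 1.59 CPM in ASO neurons, with 0 in OTV neurons, too few for a fold.

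Among indirect pathway genes, PENK stood at 107, 3.19 and 65.1 CPM in saline, 0, 18.7 and 53.0 CPM in ASO and 0, 1.31 and 0 CPM in OTV neurons. All 3 saline animals lay above all 3 OTV animals, though saline 2 rests on 1 UMI and the OTV group on 2. Among all genes tested in neurons, 13.9% had OTV groups wholly below saline. Over the pooled UMIs of each group PENK was 115 times higher in saline than in OTV neurons, with a 95% counting interval of 31.9 to 954. DRD2 stood at 13.4, 9.57 and 32.8 CPM in saline, 0, 3.74 and 29.6 CPM in ASO and 0, 0 and 1.62 CPM in OTV neurons, where its 1 UMI against 345 in saline gave a ratio of 70.6 (12.6 to 2795). ADORA2A stood at 11.8, 0 and 19.3 CPM in saline, 0, 0 and 21.4 CPM in ASO and 5.53, 1.31 and 0 CPM in OTV neurons. Its groups overlapped, since saline 2 was at 0 and OTV 1 and OTV 2 were not. The ADORA2A UMIs of OTV 1 and the 1 DRD2 UMI of OTV 3 lay in nuclei that also carried endothelial markers, and both levels were 0 without those nuclei.

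Of the 8 members, 5 had enough counts to be tested across all genes of the neurons: PDE10A, PENK, TAC1, RGS9 and RARB (9457 genes tested). DRD1, DRD2 and ADORA2A fell below the filter and were not tested with all 9 animals. DRD2 passed it in 7 of the runs that left out 1 animal, and edgeR called it lower in OTV than in saline in 3 of them (smallest adjusted p = 0.0289) and than in ASO in 1 (adjusted p = 0.0434). Over all such runs 6 to 999 genes were called against saline and 7 to 689 against ASO. With 1 UMI in OTV neurons, DRD2 passed the filter through the saline and ASO animals where it is high. These calls are therefore no support for a lower level in OTV. ADORA2A passed in 7 such runs too and was called in none. Between OTV and saline, 1 of the 5 was called by edgeR's quasi-likelihood test at an adjusted p under 0.05, against 6.82% of all genes. This was PENK, lower by 6.58 on the log2 scale (SE 1.46, adjusted p = 0.0336, range over alternatives 0.000817 to 0.134), a fitted value that depends on the prior count because OTV neurons had 2 UMIs. The call was lost without saline 1, saline 3, ASO 2 or any 1 of the OTV animals, and without the filter on low counts. Like DRD2, PENK passed the filter through the saline and ASO animals where it is high, as did TAC1 with no OTV UMI. Calls and p-values of PENK and TAC1 against OTV are therefore no support for a lower level in OTV. At an unadjusted p under 0.05 there were 4 of 5, against 26.7% of all genes. The other 4 did not pass after adjustment: PDE10A differed by -3.19 (SE 1.22, adjusted p = 0.141), RGS9 by -2.81 (SE 1.23, adjusted p = 0.185), RARB by -1.93 (SE 0.88, adjusted p = 0.200), and TAC1 had an adjusted p of 0.0698. DESeq2's Wald test called PDE10A as well as PENK, 2 of 5 against 11.7% of all genes. In bulk sums of this kind a group with fewer striatal-type neurons and one with less of the RNA in each neuron cannot be told apart.

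Between OTV and ASO, 0 of the 5 were called by edgeR, against 5.23% of all genes. At an unadjusted p under 0.05 there were 2 of 5, against 24.3% of all genes, and DESeq2 called 1, PENK, against 8.98%. PENK differed by -5.52 (adjusted p = 0.0714) and PDE10A by -2.45 (adjusted p = 0.244). Between ASO and saline, 0 of the 5 were called by edgeR, as were 0% of all genes. None had an unadjusted p under 0.05 (2.47% of all genes), and DESeq2 called none (0.0740% of all genes). The 5 log2 differences there lay between -1.06 and -0.38, each with an adjusted p of 0.99991. Those of PDE10A (0.42), TAC1 (0.50), RGS9 (0.50) and RARB (0.29) turned positive in animals with at least 20 neurons, where ASO 3 is the only ASO animal. Those of the same 4 genes did so without saline 3 (0.75, 0.20, 0.45 and 0.36).

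With all nuclei of an animal summed, all 8 members passed the filter (21854 genes tested), and a sum then depends on the neuron share as well. PDE10A ranged from 21.8 to 2820 CPM in saline, 13.03 to 468 CPM in ASO and 29.0 to 39.5 CPM in OTV animals. By edgeR 0 of 8 members were called between ASO and saline (0.0320% of all genes), 0 between OTV and saline (15.7%) and 0 between OTV and ASO (17.9%). At an unadjusted p under 0.05 the counts were 0 (9.51%), 5 (31.0%) and 1 (32.6%). DESeq2 called 0 (1.68%), 5 (24.4%) and 1 (26.0%), the 5 being PDE10A, DRD2, PENK, TAC1 and RARB, all lower in OTV animals. The limit given for PENK and TAC1 in neurons holds for these sums too. By edgeR, PDE10A differed between OTV and saline by -4.70 (SE 1.87, adjusted p = 0.126).

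Outside neurons, RGS9 in oligodendrocytes and OPCs was the member called by edgeR. In oligodendrocytes saline animals had 25.2, 36.9 and 39.4 CPM, ASO animals 11.02, 8.30 and 17.6 CPM and OTV animals 19.9, 21.7 and 44.1 CPM. Every ASO animal lay below every saline and every OTV animal, while saline and OTV overlapped. Of all genes in oligodendrocytes, 7.49% had ASO wholly below saline and 16.8% had OTV wholly above ASO. Between OTV and ASO, RGS9 was the 1 member called of 7 tested by edgeR, against 26.3% of all genes: it was higher by 1.30 in OTV animals (log2, SE 0.35, adjusted p = 0.0244, alternatives 0.00288 to 0.0802), and the call was lost without ASO 1, ASO 2 or OTV 3. Between ASO and saline it differed by -1.50 (SE 0.35, adjusted p = 0.123 by edgeR and 0.00474 by DESeq2's Wald test), and between OTV and saline by -0.20 (adjusted p = 0.737). Between OTV and ASO 2 of the 7 members had an unadjusted p under 0.05 (39.0% of all genes), and DESeq2 called 3 (31.0%): RGS9, and TAC1 and PENK lower in OTV. DRD2 was called lower by edgeR with the 6 compared animals only (adjusted p = 0.0246) and without saline 3 (0.0385), against 0.132 in all 9. With the 6 animals 26.4% of all genes were called, and 3626 to 5615 genes with 1 animal left out.

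RGS9 was followed within single clusters as well, where the shares over all genes were not computed. The clusters divide the nuclei of the same animals. The same order in several clusters is therefore no independent repeat of the order between animals, and the clusters are given as a description. Saline lay wholly above ASO for RGS9 in clusters 0, 1, 2, 3, 5 and 10, all oligodendrocytes, and in cluster 4, the largest OPC cluster, but not in the oligodendrocyte cluster 8. OTV lay wholly above ASO in clusters 0, 3, 5 and 10 and in OPC clusters 4 and 13. In clusters 1, 2, 8 and 14 OTV and ASO overlapped, and cluster 8 had 1 nucleus in OTV 3 while OPC cluster 14 had 3 RGS9 UMIs in all OTV animals. Over all their clusters OPCs had 13.04, 15.1 and 23.9 CPM in saline, 11.1, 7.06 and 11.2 CPM in ASO and 14.1, 20.9 and 16.6 CPM in OTV animals, with no overlap of ASO with either other group. Wholly lower in ASO than in saline were 6.35% of OPC genes, and wholly higher in OTV than in ASO were 16.0%. RGS9 was the 1 member of 5 called in OPCs between OTV and ASO, against 27.2% of all genes (log2 difference 0.88, SE 0.29, adjusted p = 0.0417 by edgeR), a call lost without any 1 of the ASO animals, OTV 2, OTV 3 or saline 2. Between ASO and saline the difference in OPCs was -0.84 (SE 0.28, adjusted p = 0.311). Astrocytes, where RGS9 was higher, did not follow this order: they had 164, 133 and 170 CPM in saline, 230, 75.7 and 143 CPM in ASO and 71.8, 168 and 91.6 CPM in OTV animals.

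RARB in astrocytes stood at 60.5, 53.1 and 113 CPM in saline, 22.7, 41.2 and 59.2 CPM in ASO and 27.9, 34.6 and 31.2 CPM in OTV animals. Saline lay wholly above OTV, as for 20.3% of all genes in astrocytes, and the log2 difference of -1.24 (SE 0.38) had an adjusted p of 0.0575 by edgeR, and DESeq2 called it. PDE10A in OPCs stood at 150, 170 and 323 CPM in saline, 156, 145 and 193 CPM in ASO and 227, 168 and 188 CPM in OTV animals. OTV and saline differed by -0.09 (SE 0.28, adjusted p = 0.854) there, against -3.19 in neurons, and the difference between the cell types was not tested.

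Other members in glia also had groups that did not overlap. TAC1 in oligodendrocytes stood at 5.01, 0.371 and 25.4 CPM in saline, 0.111, 0.194 and 19.6 CPM in ASO and 0.0408, 0 and 0.0538 CPM in OTV animals, where it rests on 2, 0 and 1 UMIs. OTV lay wholly below saline, as for 20.5% of all genes, and wholly below ASO, as for 27.3%. The edgeR fit gave adjusted p of 0.0875 against saline and 0.0883 against ASO, and DESeq2 0.00119 and 0.00267. DRD2 in oligodendrocytes also lay wholly lower in OTV than in ASO, at 0.161 to 0.427 against 0.681 to 1.14 CPM. RARB in OPCs lay wholly lower in OTV than in ASO (28.1% of all genes) and TAC1 in astrocytes wholly lower in OTV than in saline (20.3%), neither called by edgeR.

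The remaining comparisons in glia gave no member called by edgeR. In oligodendrocytes the counts were 0 of 7 between ASO and saline (0.394% of all genes) and 0 of 7 between OTV and saline (19.2%), with 1 (11.9% of all genes) and 2 (33.2%) at an unadjusted p under 0.05. DESeq2 called 1 (3.31%), RGS9, and 3 (23.8%), ADORA2A, PENK and TAC1. In OPCs 0 of 5 were called between ASO and saline (0.262%) and between OTV and saline (22.1%), with 1 (9.61%) and 1 (35.7%) unadjusted, and DESeq2 called 0 (1.44%) and 1 (22.2%), TAC1. The limit given for PENK and TAC1 in neurons holds for their DESeq2 calls in oligodendrocytes and OPCs too. In astrocytes 0 of 5 were called between ASO and saline (0.0147%), between OTV and saline (15.4%) and between OTV and ASO (22.0%), with 1 (830 of 13608 genes), 1 (31.5%) and 0 (36.3%) unadjusted. DESeq2 called 1 member in astrocytes, RARB, between OTV and saline (18.1%), 0 between ASO and saline (0.514%) and 0 between OTV and ASO (24.2%). In myeloid nuclei 0 of 5 were called in the same 3 comparisons (against 0.197%, 1522 of 12667 and 20.5% of all genes), none had an unadjusted p under 0.05 (10.3, 28.3 and 35.6%), and DESeq2 called none (1.54, 12.5 and 20.8%).

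In oligodendrocytes PDE10A, PENK and TAC1 were also highest in the animals rich in striatal-type neurons. RGS9 did not follow, with up to 44.1 CPM in OTV and at most 17.6 CPM in ASO oligodendrocytes. The source of these RNAs in glia was not tested. In oligodendrocytes PDE10A stood at 17.04, 2.01 and 276 CPM in saline, 1.93, 1.77 and 60.3 CPM in ASO and 4.56, 4.82 and 6.61 CPM in OTV animals. PENK in oligodendrocytes stood at 7.67, 0.0463 and 37.9 CPM in saline, 0, 0.582 and 15.1 CPM in ASO and 0.0204, 0.122 and 0 CPM in OTV animals. The 3 animals that were high were again saline 1, saline 3 and ASO 3. A PENK UMI was found in 4.59, 14.3 and 7.22% of their oligodendrocytes, against 36.8, 34.2 and 20.98% of their neurons, at median depths of 6007, 4172 and 4962 UMIs in oligodendrocytes and 15996, 16058 and 7210 UMIs in neurons. For TAC1 the shares were 2.93, 10.1 and 9.11% of oligodendrocytes and 20.3, 32.6 and 20.6% of neurons.

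**Figure D4:**
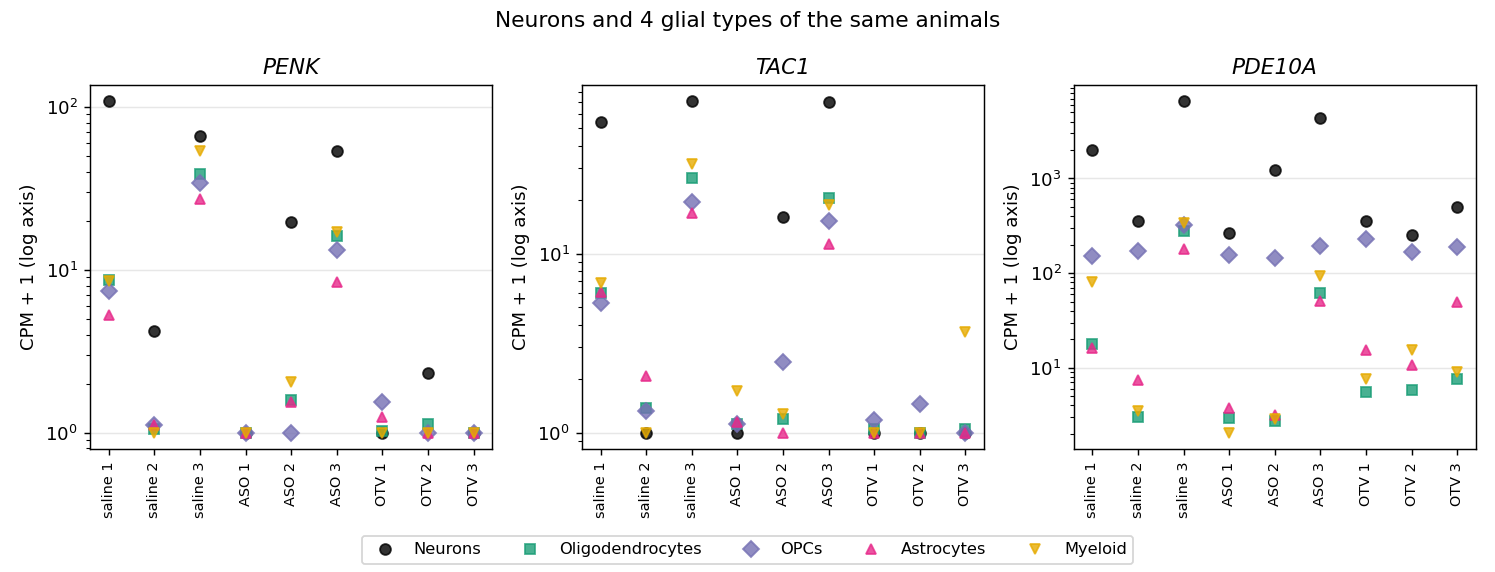
Level of PENK, TAC1 and PDE10A (CPM + 1, log axes of their own) in neurons and 4 glial types of each animal, 1 symbol per type. Glia of saline 1, saline 3 and ASO 3 are high in PENK and TAC1, and PDE10A in OPCs lies between 145 and 323 CPM in every animal.

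The ratio of both peptide precursors was compared between neurons and glia within those animals. TAC1 made up 33.2% of the TAC1 and PENK UMIs of neurons in saline 1 (exact 95% interval 30.1 to 36.4%) and 40.2% of those of glia (36.9 to 43.6%). In saline 3 the values were 51.7% (48.7 to 54.7%) and 38.1% (34.5 to 41.8%), and in ASO 3 56.7% (52.7 to 60.7%) and 56.0% (53.5 to 58.4%). The ratio was thus alike in neurons and glia of ASO 3, and in the saline animals it differed in opposite directions. PENK per 100 PDE10A UMIs was 5.35, 1.00 and 1.21 in neurons and 22.1, 12.9 and 18.4 in glia of saline 1, saline 3 and ASO 3, which is higher in glia throughout. The part that RNA from outside a nucleus has in the neuronal values of low members was not tested.

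Co-detection asks whether direct and indirect pathway genes lie in the same neuron. The count of neurons with a UMI of both genes was set beside the count expected if detection were independent within 5 equal bins of neurons by depth. All 6 pairs of a direct and an indirect gene fell below that expectation over the 1714 neurons. DRD1 and DRD2 shared 0 neurons against 8.02 expected, and DRD1 and ADORA2A shared 0 against 6.89. DRD1 and PENK shared 6 against 13.4, DRD2 and TAC1 40 against 91.5, ADORA2A and TAC1 27 against 75.5, and PENK and TAC1 69 against 131. Direct and indirect genes were therefore found together at 0.358 to 0.525 times the expected count for the 4 pairs that met at all.

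Pairs within a pathway lay on the other side. DRD2 and ADORA2A shared 144 neurons against 62.7 expected, DRD2 and PENK 182 against 102, ADORA2A and PENK 159 against 84.6, and DRD1 and TAC1 21 against 10.5. Pairs of a pathway gene with PDE10A, RGS9 or RARB, which both pathways share, stood at 1.01 to 1.18 times the expectation. The genes were detected in 1384 (PDE10A), 970 (RGS9), 847 (RARB), 419 (PENK), 345 (TAC1), 251 (DRD2), 218 (ADORA2A) and 31 (DRD1) neurons. Nuclei are not replicates, and no p is given.

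**Figure D5:**
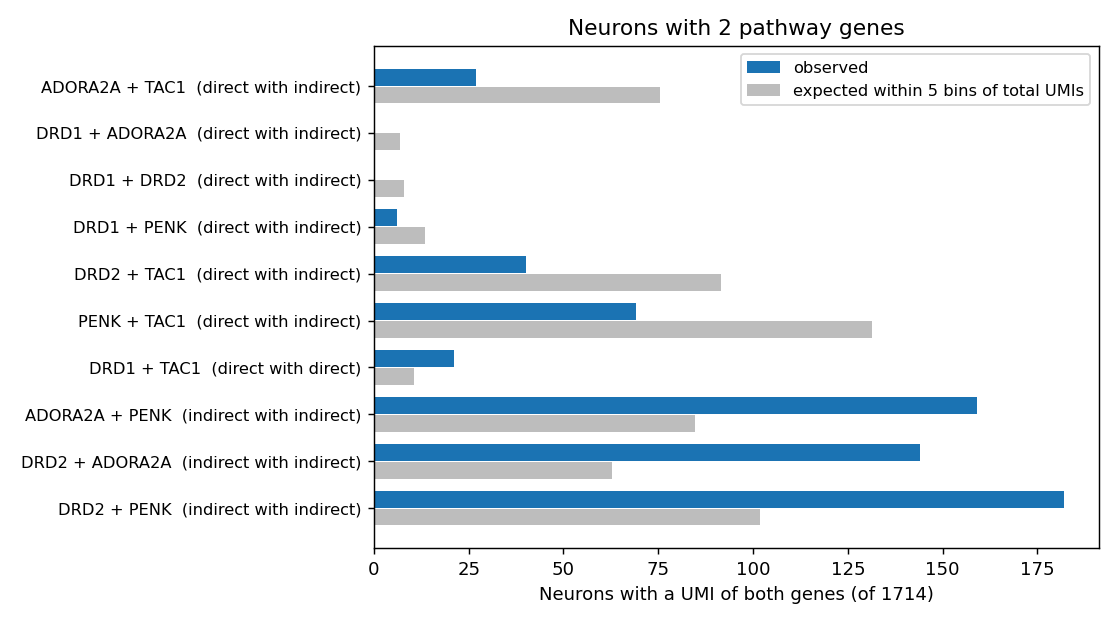
Neurons with a UMI of both genes of a pair (horizontal axis), observed in blue and expected within 5 bins of total UMIs in grey, for 6 pairs across the pathways and 4 within one. Observed bars are shorter than expected across the pathways and longer within a pathway.

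The separation was seen in each animal with many such neurons. TAC1 and PENK shared 21 neurons against 31.6 expected in saline 1, 33 against 70.0 in saline 3 and 14 against 28.9 in ASO 3. DRD2 and TAC1 shared 5 against 10.5, 27 against 57.7 and 8 against 23.0, and ADORA2A and TAC1 2 against 9.70, 18 against 45.6 and 7 against 20.2. DRD2 and ADORA2A lay above in the same animals, with 21 against 5.997, 79 against 36.9 and 44 against 19.9. ASO 2 was the exception for PENK and TAC1, which lay above expectation in 1 of the 4 animals with both. Within the 609 neurons rich in PDE10A, DRD2 and TAC1 shared 38 against 102 expected and PENK and TAC1 58 against 124.

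Sorted by their pathway genes, the 609 PDE10A-rich neurons held 199 (32.7%) with DRD1 or TAC1 only, 253 (41.5%) with DRD2, ADORA2A or PENK only, 79 (12.97%) with genes of both sides and 78 (12.8%) with neither. The direct-only share was 28.9, 35.3 and 30.98% and the indirect-only share 40.2, 40.3 and 45.7% in saline 1, saline 3 and ASO 3. The both-sided share was 17.5, 13.1 and 10.3%, and the shares were not tested between animals. Median depth was 21012, 21287, 23351 and 10281.5 UMIs in the 4 classes, so the neurons with neither were shallower. Median doublet scores, as given by the authors, were 0.00258 in the direct-only, 0.00258 in the indirect-only and 0.00236 in the both-sided neurons. PENK and TAC1 UMIs were also found in oligodendrocytes of these animals, as given above. The part that RNA from outside a nucleus has in the both-sided class was not tested. Of the 1105 neurons below the threshold, 62 were direct only, 173 indirect only, 15 both and 855 neither.

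Of the genes not used for this sorting, EBF1, FOXP2, PDYN, CNR1 and, from few UMIs, ISL1 were higher in direct-only than in indirect-only neurons in all 3 animals. EBF1, a transcription factor of direct pathway neurons, stood at 459 CPM in direct-only against 2.57 CPM in indirect-only neurons of saline 1, at 286 against 12.9 CPM in saline 3 and at 161 against 3.52 CPM in ASO 3. FOXP2 stood at 1001 against 116, 609 against 88.1 and 969 against 41.6 CPM. PDYN, the dynorphin precursor of direct pathway neurons, stood at 33.3 against 0, 30.6 against 3.04 and 46.8 against 0 CPM. The cannabinoid receptor CNR1 was also on the direct side, with 110 against 3.85, 256 against 73.3 and 404 against 118 CPM. Of the shared members, PDE10A and RARB differed less: PDE10A stood at 5289 against 4145, 8025 against 7882 and 7363 against 7031 CPM, and RARB at 323 against 293, 382 against 404 and 396 against 396 CPM. DRD3 did not separate the classes, with 66.6 against 86.0, 66.6 against 67.2 and 43.6 against 42.3 CPM, and SP9 was at 3.92 against 3.85, 2.97 against 5.70 and 4.26 against 7.75 CPM. RGS9 was higher in indirect-only neurons of saline 1 and ASO 3 and nearly equal in saline 3, with 413 against 646, 826 against 840 and 704 against 878 CPM. GNAL was higher in indirect-only neurons too, with 839 against 1043, 893 against 1047 and 721 against 815 CPM. ADCY5 and ARPP21 went the same way in all 3 animals. The neurons were sorted by their own counts, so these values are a description.

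Lists of related genes were followed in neurons. Of 26 shared striatal genes 20 were tested, and between OTV and saline 2 were called lower and none higher by edgeR, against 4.30% of all genes lower and 2.52% higher. The median log2 difference was -1.25, with 19 of the 20 below 0, against -0.02 over all genes tested. The called genes were RXRG, a retinoid receptor partner of RARB (-5.60, SE 1.19, adjusted p = 0.0295), and ARPP21, a cAMP-regulated phosphoprotein (-3.14, SE 0.78, adjusted p = 0.0460). ARPP21 stood at 837, 262 and 1170 CPM in saline, 139, 531 and 871 CPM in ASO and 73.3, 129 and 84.4 CPM in OTV neurons. The highest OTV animal was under the lowest of saline and of ASO, and 13.9 and 14.0% of all genes in neurons lay wholly below saline and wholly below ASO. RXRG stood at 24.2, 3.19 and 54.5 CPM, 6.96, 33.6 and 39.5 CPM, and 0, 1.31 and 0 CPM. It passed the filter through the saline and ASO animals where it is high, so its calls are no support for a lower level in OTV. Between OTV and ASO only RXRG was called (-5.45, adjusted p = 0.0410; 5.23% of all genes were called), with a median of -1.06 over the list. Between ASO and saline none of the 20 were called and the median was -0.30.

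Of the 10 direct pathway genes 5 were tested and 1 was called between OTV and saline, where 6.82% of all genes were: the D3 dopamine receptor DRD3, lower by 3.90 on the log2 scale (SE 0.79, adjusted p = 0.0241), with 41.7, 19.1 and 53.0 CPM in saline and 1.38, 1.96 and 6.49 CPM in OTV neurons. DRD3 passed the filter through animals outside the OTV group, where it is higher, so this call is no support for a lower level in OTV. The median of the direct list was 0.14, with 2 of the 5 below 0. Of the 10 indirect pathway genes 5 were tested, and between the same groups 2 were called, with PENK called lower and the serotonin receptor HTR2A called higher (1.99, SE 0.49, adjusted p = 0.0444). The limit given above for the PENK call holds here. HTR2A was also higher in OTV than in ASO neurons (3.16, adjusted p = 0.0236). The median of the indirect list was 0.67 between OTV and saline, so this list did not move as one.

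Of the genes of other neurons, 0 of 7 thalamic, 1 of 6 other inhibitory and 1 of 2 cortical excitatory genes tested were called between OTV and saline, where 6.82% of all genes were. CUX2, a transcription factor of upper-layer cortical neurons, was called higher in OTV neurons against saline (2.17, SE 0.41, adjusted p = 0.0193) and against ASO (2.06, adjusted p = 0.0277), and stood at 95.4 to 262 CPM in saline and 671 to 812 CPM in OTV neurons. TAC3, the neurokinin B precursor, was called lower against saline (-4.42, SE 1.06, adjusted p = 0.0404) and against ASO (-5.47, adjusted p = 0.0255). The 7 thalamic genes had a median of 0.59 between OTV and saline. Leaving out 1 animal at a time ended the OTV against saline calls in 6 of 9 runs for ARPP21, 5 for RXRG, 5 for DRD3, 7 for HTR2A, 3 for CUX2 and 7 for TAC3, and saline 1, saline 3 and OTV 3 ended all 6. That of ARPP21 also ended without the filter on low counts. The OTV against ASO calls ended in 5 runs for CUX2, 3 for HTR2A, 6 for RXRG and 6 for TAC3. Those of CUX2, HTR2A and RXRG also ended in animals with at least 20 neurons. ASO 3 was then the only ASO animal, so that fit cannot decide these calls. The RXRG call ended as well when genes with low counts were kept.

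Some nuclei named neurons carried endothelial RNA. With a UMI of at least 3 of the 8 matched endothelial markers there were 14, 8 and 0 such nuclei in saline, 7, 1 and 14 in ASO and 36, 2 and 20 in OTV animals, 102 in all. Summed endothelial markers stood at 124, 1353 and 14.03 CPM in saline, 2150, 26.2 and 156 CPM in ASO and 2261, 82.3 and 458 CPM in OTV neurons and were thus highest in OTV 1, ASO 1 and saline 2. In these 102 nuclei PDE10A stood at 419 CPM and EBF1 at 1510 CPM, against 3993 and 89.6 CPM in the other 1612. Without them, an alternative chosen after seeing the data, edgeR called PENK (-6.49, adjusted p = 0.0190) and TAC1 (adjusted p = 0.0445) lower in OTV than in saline neurons, with 12.1% of all genes called there against 6.82% in all neurons. In OTV neurons PENK then stood at 0, 1.31 and 0 CPM and TAC1 at 0. Both genes passed the filter through the saline and ASO animals, so these calls are no support for a lower level in OTV. PDE10A differed by -3.13 (adjusted p = 0.130) without those nuclei and by -3.19 with them. Glial markers moved between the groups too. Summed OPC markers in neurons were 973 to 1440 CPM in saline, 661 to 1174 CPM in ASO and 303 to 757 CPM in OTV animals, wholly lower in OTV than in saline. Summed oligodendrocyte markers were 209 to 392 CPM in saline, 636 to 1823 CPM in ASO and 300.0 to 898 CPM in OTV animals, with ASO wholly above saline. The part that endothelial, OPC or oligodendrocyte RNA has in the neuronal differences of the members was not tested, beyond leaving out the 102 nuclei.

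Across the 17 clusters, the genes with the pattern most like each member (Pearson correlation of log2(CPM + 1), as a description over clusters that share libraries) included ANO3 (r = 0.960), RBFOX1 (0.954) and LRRC7 (0.946) for PDE10A. For TAC1 they were NRGN (0.960), HPCA (0.959) and OPRK1 (0.932), and for PENK they were EPHA6 (0.940), TAC1 (0.931) and ASPHD2 (0.929). RGS9 was nearest DCLK1 (0.954), ST6GALNAC5 (0.943) and FSTL5 (0.921), RARB nearest ICA1L (0.972), ME3 (0.970) and TMEM9 (0.969), and DRD2 nearest ART4 (0.976), FFAR4 (0.969) and C6orf141 (0.968). ADORA2A stood apart with KIRREL1 (0.988), ADGRF5 (0.964) and ESAM (0.949), of which ESAM is a junction protein of endothelial cells. DRD1, with 59 UMIs, gave TMEM191C (0.969), PLEKHN1 (0.960) and C6orf141 (0.960). Over the neurons of the 7 animals with at least 20 of them, PDE10A was most like CAMK1D (0.992), ENTPD3 (0.990), BOLL (0.989, from 11 UMIs), MME (0.988) and BSPRY (0.988), and the other members ranked 27 (RARB), 52 (TAC1), 225 (DRD1), 274 (RGS9), 354 (PENK), 414 (DRD2) and 565 (ADORA2A) of 12856 genes. Those 7 points are 3 animals at 1999 CPM of PDE10A or more and 4 at 503 CPM or less.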

How the data were processed

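Nuclei from frozen thalamus were sorted on a DNA stain and captured in 10x droplets, per the labels' protocols. Cell Ranger 6.1.2, Seurat 4 and GRCh38.p13 are named in the submitters' processing notes, which give them no role here, and gene identifiers in the files are those of the monkey. The authors deposited UMI counts per nucleus, a doublet score as a fraction, a ribosomal percent (not used), sample names and cell types. The sources used here do not state any removal of doublets, and no nuclei were removed for this work. Depth was 20.0 to 98.9 M UMIs per animal.

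Raw counts were summed per animal and cell type and tested with edgeR 4.0.16 (quasi-likelihood, TMM, filterByExpr, all 9 animals in 1 fit, Benjamini-Hochberg over all genes tested), with DESeq2 1.42.0 as an alternative, in R 4.3.3. The fits were tested on simulated data. P-values measure the spread between animals. Levels are CPM, counts per 1000000 UMIs of the set. Intervals are at 95% and, like the floor of 3 counts, cover counting error only. Exact permutation tests (two-sided, SciPy 1.17.1) used 280 partitions of the animals. Named genes outside the 8 are the called members of the lists, fixed markers and the nearest genes by correlation (features with at least 100 UMIs). The genes leading cluster 15 were taken by fold over the other nuclei. SLC17A6, RORA, GAD1 and the list genes compared between pathway classes were chosen after their values were seen. Members and lists were chosen with earlier results of these data known. Of 163 list symbols 148 were matched, and the others were not analysed here. Alternatives were other scalings, filters, thinning depths, animal subsets and leaving out each animal. Leaving out nuclei with endothelial markers and splitting co-detection by PDE10A rate or doublet score were chosen after seeing the data.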

Additional observations from a re-analysis of the deposited data

How the results depend on the processing

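Called members in neurons between OTV and saline were 1 by edgeR (6.82% of all genes), 2 by DESeq2's Wald test (11.7%) and 2 without nuclei carrying endothelial markers (12.1%). They were 0 to 3 when 1 animal was left out, DRD2 included where it passed the filter. Between OTV and ASO they were 0 by edgeR, 1 by DESeq2, 1 without endothelial-marker nuclei and 0 to 1 with 1 animal left out. PENK, TAC1 and DRD2 passed the filter through the saline and ASO animals. Their calls in both comparisons are therefore no support for a lower level in OTV. In all nuclei, OTV against saline gave 0 by edgeR (15.7% of all genes), 1 with the 6 compared animals only (10.6%) and 5 by DESeq2 (24.4%). With 1 animal left out it gave 0 to 1, where 1629 to 3125 genes were called. OTV against ASO gave 1 by DESeq2 (26.0%). All genes called in neurons between OTV and saline numbered 645 by edgeR, 1104 by DESeq2, 1009 without endothelial-marker nuclei and 6 to 999 with 1 animal left out. Between OTV and ASO they numbered 495, 849 by DESeq2, 734 without those nuclei, 183 in the 6 compared animals and 7 to 689 with 1 animal left out. The cause was not tested. Between ASO and saline neurons the sign reversed for PDE10A (0.42), TAC1 (0.50), RGS9 (0.50) and RARB (0.29) in animals with at least 20 neurons. ASO 3 then stands alone for its group. The sign also reversed without saline 3 for the same genes. With 1 animal left out the differences ran from -2.27 (without ASO 3) to 0.75 (without saline 3) for PDE10A, -2.55 to 0.20 for TAC1, -2.46 to 0.45 for RGS9 and -1.27 to 0.36 for RARB. PDE10A in OPCs between OTV and saline reversed without saline 3, with a range of -0.30 to 0.33. The DRD1 and TAC1 ratio was 0 at 2 UMIs or more, where 1 neuron had that many DRD1 UMIs. All 6 direct-indirect pairs lay below expectation, and after thinning to 1000 UMIs 3 of 3 with an expectation did. The exact p for the share of neurons with PDE10A was 0.529 thinned to 1000 UMIs, 0.0393 without thinning and 0.0714 to 0.721 with 1 animal left out. For the neuron share of nuclei it was 0.189 to 0.861 with 1 animal left out, and 0.564 on the share itself. No paired analysis was possible because no label ties an animal of 1 group to an animal of another. The few neurons of saline 2, ASO 1 and ASO 2 limit what can be seen there.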
